A study of Homo sapiens with 12 samples.

Results

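The aminoacyl-tRNA synthetases are the enzymes that join each amino acid to its transfer RNA. They were followed here as 35 nuclear genes, picked by symbol from a table of 19293 protein-coding genes. Of these genes, 19 encode enzymes of the cytosol and 16 encode enzymes of the mitochondrion, whose symbols end in 2. WARS, the cytosolic tryptophan enzyme, was left out. The cells were HT1080, an established human fibrosarcoma line, in 4 groups of 3 libraries each. The combination group received IFNγ at 10 ng/ml and radiation at 20 Gy, the radiation group 20 Gy alone, the IFNγ group 10 ng/ml alone, and the untreated group neither. All cells were harvested at 24 h. All samples are of this line alone, and the labels do not say whether the 3 libraries of a group came from separate cultures. The p-values therefore rest on library-to-library spread that may be technical only.

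Each cytosolic enzyme loads its transfer RNAs for the ribosomes of the cytosol, and each mitochondrial enzyme does so for the few proteins that mitochondria translate themselves. The KARS and GARS genes each make a cytosolic and a mitochondrial form, so they have no separate mitochondrial gene. Many cytosolic enzymes are known targets of ATF4, the transcription factor of amino acid shortage and stress of the endoplasmic reticulum, which binds C/EBP-ATF response elements. IFNγ is the type II interferon, and WARS is a classical gene induced by it.

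Total counts per library ran from 9675126 to 11010656. All 35 genes passed the filter on low counts, with 35 to 5738 counts per gene and library. The lowest was PARS2, the mitochondrial proline enzyme. The mesenchymal markers VIM, FN1 and CDH2 were present in every library (VIM at 41547 to 58495 counts), whereas the fibroblast marker THY1 had 0 to 2 counts. The markers COL1A1 and COL1A2 were low, at 17 to 99 and 15 to 45 counts. The epithelial markers EPCAM, CDH1 and KRT19 and the immune marker CD3E had at most 2 counts, and the endothelial markers PECAM1 and CDH5 at most 8. The leukocyte marker PTPRC reached 23 counts. Transcripts encoded in the mitochondrial genome took a larger share of counts after radiation. They took 4.25% to 4.34% in combination, 4.44% to 4.46% in radiation, 3.36% to 3.59% in IFNγ and 3.53% to 3.61% in untreated libraries. The part of that share in the results on the synthetases was not tested.

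In untreated cells the cytosolic genes were expressed at higher levels than the mitochondrial genes. A level is a CPM value, a count per 1e6 counts in a library scaled by TMM, the trimmed mean of M-values. Between genes it is divided by the length of the principal transcript in kilobases. On that scale per kilobase the cytosolic genes lay between 46.9 and 175 CPM per kilobase, with a median of 72.9. The mitochondrial genes lay between 2.26 and 58.1, with a median of 8.35. KARS, the lysine enzyme, stood highest at 175 ± 2.09 (SD, n = 3), followed by GARS, the glycine enzyme, at 134 ± 3.96 and RARS, the arginine enzyme, at 132 ± 2.10. These last 2 genes did not differ by more than their spread. VARS, the valine enzyme, was lowest among the cytosolic genes at 46.9 ± 2.31. Among the mitochondrial genes IARS2, the isoleucine enzyme, stood apart at 58.1 ± 0.958, inside the cytosolic range. It was followed by RARS2 (arginine) at 28.3 ± 0.245 and CARS2 (cysteine) at 27.2 ± 2.28, which lay within their spread of each other. PARS2 was lowest at 2.26 ± 0.404. This order depends on the length used. Divided by the union of a gene's exons, NARS (97.1) stood above KARS (86.5), CARS (12.95) was the lowest cytosolic gene, CARS2 stood at 4.88, and FARS2 (2.03) lay below PARS2 (2.26).

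Radiation against untreated cells gave the effect of 20 Gy by itself. Most cytosolic synthetase genes fell after radiation, and the mitochondrial genes were divided. Of 19 cytosolic genes 16 fell, 2 rose (QARS and HARS) and 1 did not pass the test (LARS), with a median log2 fold change of -0.29. Of 16 mitochondrial genes 6 fell, 2 rose and 8 did not pass, with a median of -0.12. Among all 12160 genes tested, 28.2% were called lower and 27.9% higher, with a median of 0.0061. The 16 of 19 cytosolic genes stand above the first share, and the 6 of 16 mitochondrial genes near it. A call here is an adjusted p under 0.05 in edgeR's quasi-likelihood test, adjusted by Benjamini and Hochberg's method over the 12160 genes, and every adjusted p below is of this kind. The cytosolic genes had 789 to 5738 counts per library and the mitochondrial genes 35 to 2263, so that smaller fold changes could be called in the cytosolic list. The counts rest on levels relative to all other transcripts, and in a bulk culture fewer cells of a kind and less RNA per cell cannot be told apart.

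**Figure D1:**
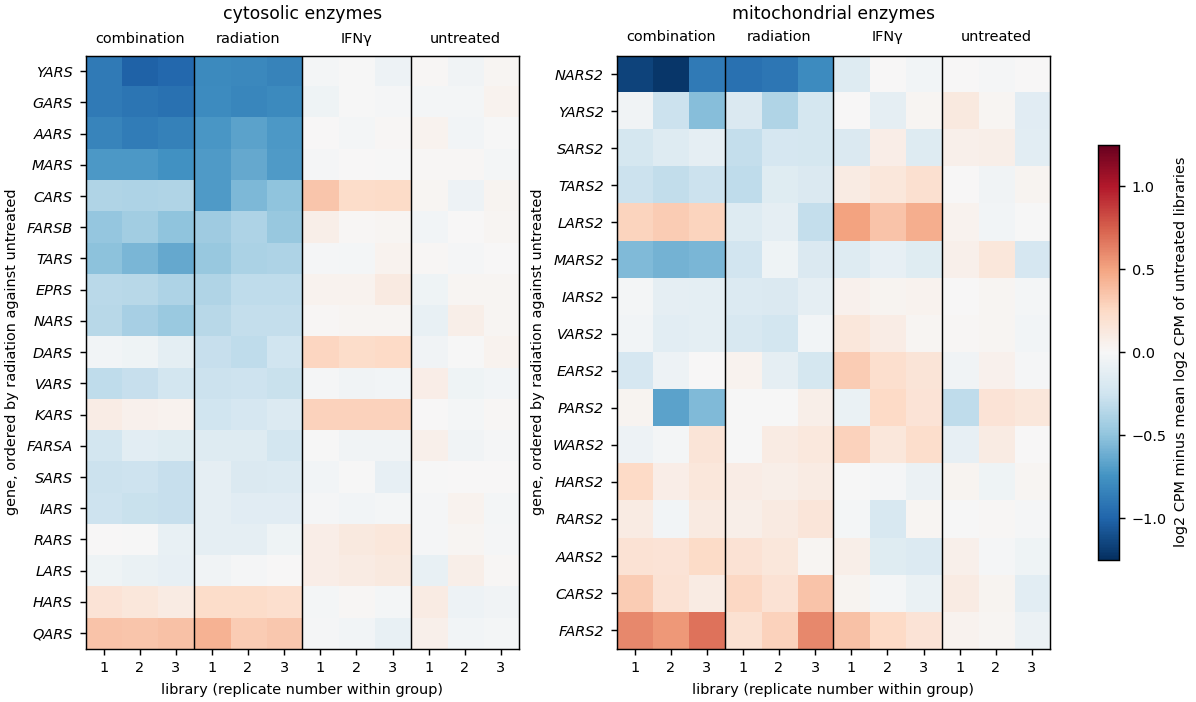
Each row is a synthetase gene and each column a library; colour gives log2 CPM minus the mean log2 CPM of the 3 untreated libraries. The cytosolic genes are blue in most radiation and combination columns (median log2 fold change -0.29 after radiation), with red at QARS and HARS, while the mitochondrial genes are mixed and NARS2 is the deepest blue.

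The largest decreases in the cytosol were those of YARS, GARS, AARS, MARS and CARS. YARS, the tyrosine enzyme, had 136, 136 and 133 CPM in the radiation libraries, against 239.7, 229.8 and 242 CPM in the untreated libraries. The lowest untreated library stood far above the highest irradiated library (log2 fold change -0.81 ± 0.0378 (SE), adjusted p = 3.32e-26). GARS had 205, 201 and 203 CPM in radiation and 348, 347 and 365 CPM in untreated libraries. The 3 irradiated values lay close together and below all untreated values (log2 fold change -0.80 ± 0.0336 (SE), adjusted p = 3.36e-28). AARS, the alanine enzyme, had 146, 153 and 148 CPM in radiation and 250.0, 237 and 242 CPM in untreated libraries (log2 fold change -0.71 ± 0.0362 (SE), adjusted p = 2.54e-24). MARS, the methionine enzyme, had 189, 198 and 189 CPM in radiation and 310.2, 310.2 and 303 CPM in untreated libraries (log2 fold change -0.68 ± 0.0339 (SE), adjusted p = 6.74e-25). In neither gene did the groups overlap. CARS, the cysteine enzyme, had 79.5, 88.0 and 91.9 CPM in radiation and 133, 124 and 133 CPM in untreated libraries (log2 fold change -0.59 ± 0.0468 (SE), adjusted p = 2.84e-16). Its irradiated libraries were more spread than those of the other 4 genes and still lay below all untreated ones. Of all 12160 genes tested, 3696 had every radiation library below every untreated one, and 3697 had every one above.

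Smaller decreases followed in FARSB (-0.44 on the log2 scale), the beta subunit of the phenylalanine enzyme, TARS (-0.42, threonine), EPRS (-0.34, which carries the glutamate and proline activities in a single protein), NARS (-0.31, asparagine) and DARS (-0.29, aspartate). VARS (-0.27), KARS (-0.21), FARSA (-0.18, the alpha subunit of the phenylalanine enzyme), SARS (-0.15, serine), IARS (-0.13, isoleucine) and RARS (-0.09) fell least. The subunits of the phenylalanine enzyme, which work as a tetramer of alpha and beta chains, thus had unequal fold changes, and the difference between them was not tested. RARS was the only cytosolic gene whose call did not hold in every alternative, and it was lost in DESeq2, with library totals as the scale or without radiation replicate 1 or 2 or untreated replicate 2 (log2 fold change -0.086 to -0.07). LARS, the leucine enzyme, had 332, 338 and 342 CPM in radiation and 321, 359.5 and 345 CPM in untreated libraries (log2 fold change -0.02 ± 0.0338, SE), and its groups overlapped.

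QARS and HARS went against the other cytosolic genes. QARS, the glutamine enzyme, had 208, 193 and 194 CPM in radiation and 161, 150.3 and 152 CPM in untreated libraries. All 3 irradiated libraries lay above all untreated ones (log2 fold change 0.36 ± 0.0385 (SE), adjusted p = 5.6e-12). HARS, the histidine enzyme, had 155, 155 and 153 CPM in radiation and 142, 127 and 129 CPM in untreated libraries, again without overlap (log2 fold change 0.22 ± 0.0409 (SE), adjusted p = 7.13e-06). Exons of HARS and of its mitochondrial neighbour HARS2 share 437 bases on opposite strands in GENCODE release 29. The strand setting of the deposited counts is not given in the sources used here, so reads in the shared bases cannot be assigned to either gene with certainty.

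Of the cytosolic enzymes, 8 belong to the multisynthetase complex, a particle held together by the scaffolds AIMP1, AIMP2 and EEF1E1. In this complex 6 genes fell after radiation, 1 rose (QARS) and 1 did not pass, with a median log2 fold change of -0.17 and with MARS as the largest decrease. Of the 11 enzymes outside it 10 fell and 1 rose (HARS), with a median of -0.42. The difference between these lists was not tested. Among the scaffolds EEF1E1 fell (log2 fold change -0.28), while AIMP2 stood at -0.17 and AIMP1 at 0.012, neither of them called. Synthetases come in 2 unrelated structural classes. In class I, 7 of 9 cytosolic genes fell and 1 rose, and in class II, 9 of 10 fell and 1 rose. EPRS, which holds 1 enzyme of each class, was counted in class I only.

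**Figure D2:**
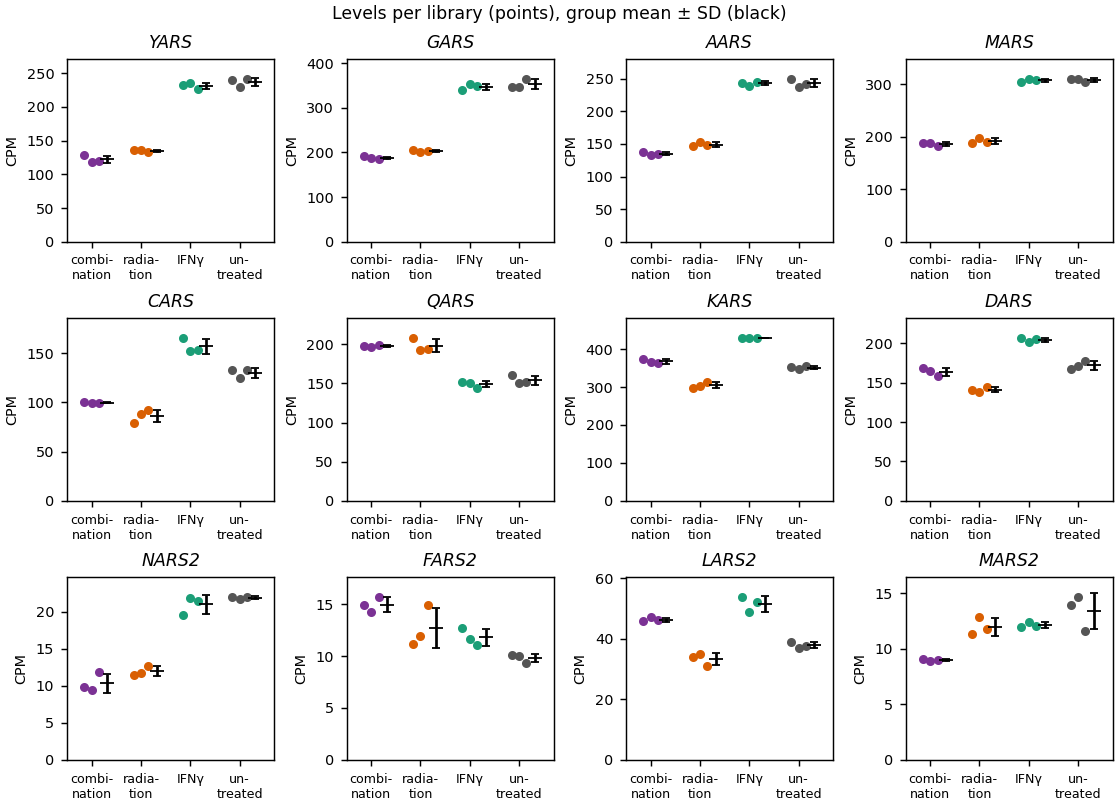
CPM of 12 synthetase genes in each library (coloured points) with the group mean ± SD in black; the vertical axes start at 0. YARS, GARS, AARS and MARS are low in all 6 irradiated libraries, with and without IFNγ, QARS is high in them, and KARS, CARS, DARS and LARS2 are higher with IFNγ than without it in irradiated and in unirradiated cells alike.

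The promoters of the cytosolic genes were read for the C/EBP-ATF response element, because it is the site through which ATF4 acts. RefSeq windows of 300 bases (GRCh38.p14, 250 before and 50 after the annotated start) were found for 29 of the 35 genes. The core letters TGATGNAA were searched on both strands. They were present in 7 of 15 cytosolic genes with a window and in 1 of 14 mitochondrial genes. Counted by window, 8 of the 37 windows of these 29 genes held them, against 3.62% of 35116 RefSeq windows of the same length. The stretches with the match are shown because they mark which of the falling genes carry these letters near their start. Each runs from 5′ to 3′ on the strand of the gene and ends with the match, which is in capitals.
AARS: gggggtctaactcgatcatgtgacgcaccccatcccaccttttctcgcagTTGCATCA
CARS: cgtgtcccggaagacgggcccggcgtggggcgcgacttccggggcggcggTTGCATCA
GARS: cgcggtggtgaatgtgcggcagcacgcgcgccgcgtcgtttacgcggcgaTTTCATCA
IARS: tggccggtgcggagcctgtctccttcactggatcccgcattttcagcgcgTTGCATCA
MARS: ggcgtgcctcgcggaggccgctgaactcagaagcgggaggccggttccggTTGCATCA
NARS: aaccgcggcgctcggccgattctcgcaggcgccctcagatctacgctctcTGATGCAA
TARS: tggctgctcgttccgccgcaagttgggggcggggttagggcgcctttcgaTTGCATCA
YARS2: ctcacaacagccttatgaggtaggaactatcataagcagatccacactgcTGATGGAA
The stretches are those of AARS at chr16:70289686-70289743 on the minus strand, with the match 187 bases upstream of the annotated start, CARS at chr11:3057418-3057475 on the minus strand, with the match 2 bases upstream of the annotated start, and GARS at chr7:30594795-30594852 on the plus strand, with the match 33 bases upstream of the annotated start. They are followed by IARS at chr9:92293703-92293760 on the minus strand, with the match 13 bases upstream of the annotated start, MARS at chr12:57488014-57488071 on the plus strand, with the match 4 bases upstream of the annotated start, and NARS at chr18:57621815-57621872 on the minus strand, with the match 14 bases downstream of the annotated start. The last are TARS at chr5:33440917-33440974 on the plus strand, with the match 2 bases downstream of the annotated start, and YARS2 at chr12:32756087-32756144 on the minus strand, with the match 197 bases upstream of the annotated start. In AARS, CARS, IARS, MARS and TARS the match had the same letters, TTGCATCA, and NARS held their reverse complement TGATGCAA.

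The 7 cytosolic genes with a match had radiation log2 fold changes between -0.80 (GARS) and -0.13 (IARS), with a median of -0.59. The 8 cytosolic genes with a window and no match ranged between -0.44 (FARSB) and 0.36 (QARS), with a median of -0.17. The ranges overlap, and the difference was not tested. No window was matched for DARS, LARS, VARS and YARS among the cytosolic genes, and YARS had the largest decrease of all 19. A match describes these letters in these windows and not binding of a factor.

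Among the mitochondrial genes NARS2, the asparagine enzyme, had the largest change. It had 11.5, 11.8 and 12.7 CPM in radiation and 22.0, 21.7 and 22.0 CPM in untreated libraries (log2 fold change -0.87 ± 0.0947 (SE), adjusted p = 1.35e-11). Every irradiated library lay below every untreated library, by more than the spread within either group. FARS2, the phenylalanine enzyme, rose, with 11.2, 12 and 14.9 CPM in radiation and 10.1, 9.98 and 9.34 CPM in untreated libraries (log2 fold change 0.37 ± 0.114 (SE), adjusted p = 0.00487). Its increase leaned on the third irradiated library, and it lost its call without radiation replicate 3 (log2 fold change 0.23). YARS2, the tyrosine enzyme, had 23.1, 20.1 and 22.5 CPM in radiation and 28.4, 26.5 and 23.7 CPM in untreated libraries (log2 fold change -0.26 ± 0.0896 (SE), adjusted p = 0.0108), and the groups nearly met.

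IARS2 (-0.15) also fell, and CARS2 (0.26) rose. NARS2, IARS2 and CARS2 were the mitochondrial genes called under every alternative. Of the others, YARS2 lost its call in DESeq2 or without radiation replicate 2 or untreated replicate 1 (log2 fold change -0.26 to -0.20). SARS2, the serine enzyme (-0.25), lost it in DESeq2 or without radiation replicate 1 or untreated replicate 2 (log2 fold change -0.24 to -0.21). TARS2, the threonine enzyme (-0.21), lost it in DESeq2 or without radiation replicate 1 or untreated replicate 3 (log2 fold change -0.21 to -0.16), and LARS2, the leucine enzyme (-0.19), in DESeq2 or without radiation replicate 3 (log2 fold change -0.19 to -0.14). MARS2 (-0.17, methionine) and VARS2 (-0.15, valine) were not called. MARS2 was called without untreated replicate 3 (log2 fold change -0.26), and VARS2 without radiation replicate 3 (log2 fold change -0.22). EARS2 (-0.094), PARS2 (0.0098), WARS2 (0.077), HARS2 (0.089), RARS2 (0.11) and AARS2 (0.11) did not pass the test.

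Cytosolic and mitochondrial enzymes for the same amino acid were set side by side in 16 pairs. EPRS stands in a pair with EARS2 and in another with PARS2, and FARS2 in a pair with each subunit of the cytosolic phenylalanine enzyme. After radiation the cytosolic log2 fold change was the more negative in 11 of 16 pairs, with a median difference of -0.22. CARS fell while CARS2 rose, and AARS fell while AARS2 stood at 0.11, not called. The phenylalanine enzymes also moved apart, with FARSA and FARSB lower and FARS2 higher. The asparagine pair went the other way, since NARS2 fell by 0.87 and NARS by 0.31 on the log2 scale. In the leucine pair LARS2 was called lower and LARS was not called. The differences within pairs were not tested.

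**Figure D3:**
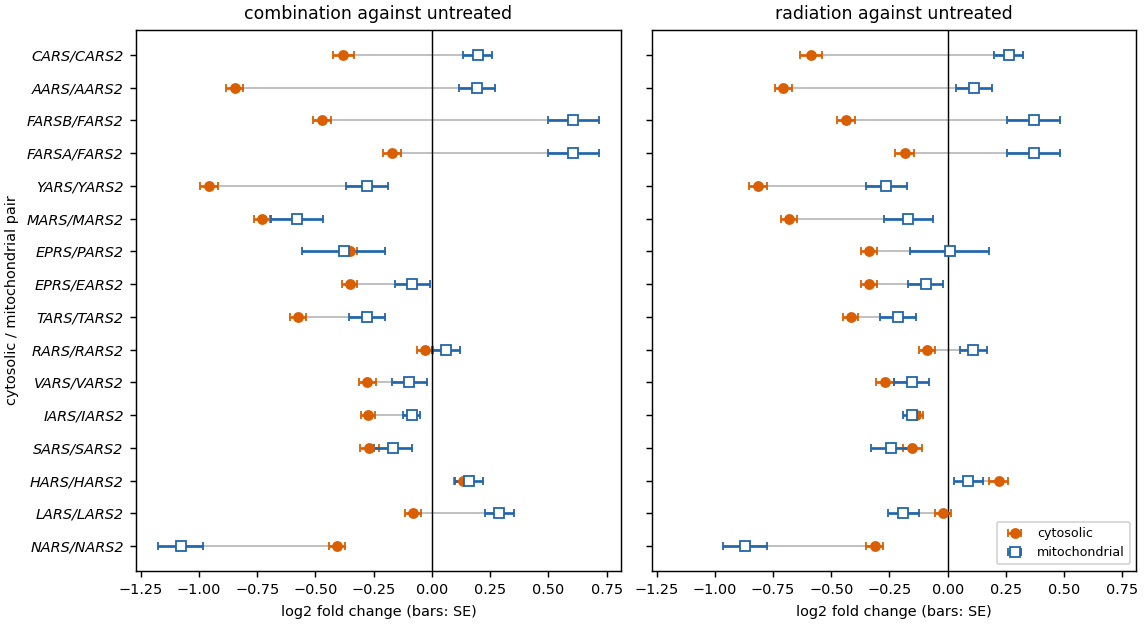
Log2 fold change ± SE of each cytosolic gene (orange circles) and its mitochondrial partner (open blue squares), for combination against untreated (left) and radiation against untreated (right); a grey line joins the pair. The cytosolic gene lies to the left of its partner in 14 of 16 pairs in the left panel and 11 of 16 in the right, and the NARS/NARS2 pair is turned round in both.

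As a sum over the list, the cytosolic genes reached 4087 ± 28.5 CPM in radiation and 5036 ± 25.7 CPM in untreated libraries (SD, n = 3), a decrease of 18.8%. The 16 mitochondrial genes summed to 583.5 ± 10.3 CPM in radiation and 614 ± 13.7 CPM in untreated libraries, 4.97% lower. In IFNγ libraries the cytosolic sum was 5209 ± 15.1 CPM and the mitochondrial sum 639 ± 10.3 CPM. In combination libraries these sums were 4015 ± 67.0 and 601.7 ± 17.2 CPM. The 6 irradiated libraries thus all lay below the 6 unirradiated ones in the cytosolic sum, whereas the mitochondrial sums of combination and untreated libraries overlapped. The mitochondrial sums of radiation libraries (576.4 to 595.3 CPM) lay below those of untreated libraries (598.2 to 622.7 CPM).

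**Figure D4:**
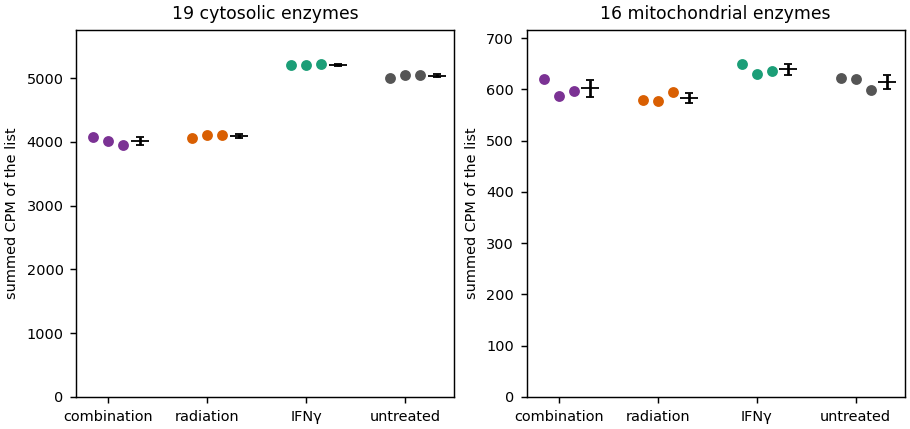
Summed CPM of the 19 cytosolic genes (left) and the 16 mitochondrial genes (right) in each library, with the group mean ± SD in black; both axes start at 0 and differ in scale. The cytosolic sum is 3947 to 4106 CPM in combination and radiation libraries and 5006 to 5226 CPM in IFNγ and untreated libraries, and the mitochondrial sums lie between 576.4 and 650.3 CPM.

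IFNγ against untreated cells gave the effect of the cytokine by itself. A small subset of the synthetases rose, by small amounts, and 0 fell in edgeR's quasi-likelihood test. No synthetase gene was lower at an unadjusted p under 0.05 either, and DESeq2 also called 0 lower. Of the cytosolic genes 5 rose and 14 did not pass the test, with a median log2 fold change of -0.0023. Of the mitochondrial genes 2 rose and 14 did not pass, with a median of 0.0054. Of all genes tested 15.0% were called higher and 14.1% lower. The 5 of 19 cytosolic genes are above the first share and the 2 of 16 mitochondrial genes near it. Of the 5 cytosolic calls 3 held under every alternative. WARS itself, outside the list, had a log2 fold change of 4.76 in the same libraries.

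LARS2 rose most. It had 53.8, 48.6 and 52.0 CPM in IFNγ and 39.0, 37.0 and 37.7 CPM in untreated libraries, without overlap (log2 fold change 0.44 ± 0.0606 (SE), adjusted p = 2.85e-08). KARS had 429, 430.0 and 428 CPM in IFNγ and 353, 347 and 354 CPM in untreated libraries. Its 3 IFNγ values lay close together and above all untreated values (log2 fold change 0.29 ± 0.0307 (SE), adjusted p = 1.86e-11). CARS had 166, 153 and 153 CPM in IFNγ and 133, 124 and 133 CPM in untreated libraries (log2 fold change 0.27 ± 0.0431 (SE), adjusted p = 7.24e-07). DARS had 207, 202 and 205 CPM in IFNγ and 167, 172 and 178 CPM in untreated libraries (log2 fold change 0.25 ± 0.037 (SE), adjusted p = 1.56e-07). In these 2 genes, too, every IFNγ library lay above every untreated one. The same held for 2407 of all 12160 genes tested.

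The other increases were smaller and less stable. RARS had 301, 308 and 312 CPM in IFNγ and 281, 289 and 281 CPM in untreated libraries (log2 fold change 0.11 ± 0.0334 (SE), adjusted p = 0.00628), and lost its call with library totals as the scale (log2 fold change 0.057). LARS had 362, 367 and 372 CPM in IFNγ and 321, 359.5 and 345 CPM in untreated libraries (log2 fold change 0.10 ± 0.0336 (SE), adjusted p = 0.0145), and lost it with library totals as the scale or without IFNγ replicate 3 or untreated replicate 1 (log2 fold change 0.046 to 0.094). EARS2, the mitochondrial glutamate enzyme, had 37.1, 34.4 and 33.3 CPM in IFNγ and 28.9, 30.9 and 29.5 CPM in untreated libraries (log2 fold change 0.23 ± 0.072 (SE), adjusted p = 0.0111). It lost its call in DESeq2, with library totals as the scale or without IFNγ replicate 1 (log2 fold change 0.17 to 0.23). WARS2, the mitochondrial tryptophan enzyme (0.21), was not called but was without untreated replicate 2 (log2 fold change 0.27). The cytosolic increases of KARS, DARS, RARS and LARS were in enzymes of the multisynthetase complex, in which 4 of 8 rose, against 1 of 11 outside it (CARS) and 15.0% of all genes. RARS and LARS are among the 4, and the difference between the lists was not tested. EPRS, which joins the IFNγ-activated inhibitor of translation complex in myeloid cells, had a log2 fold change of 0.066 and was not called. The scaffold AIMP1 rose (0.24).

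The IFNγ counts depend on scale. With library totals in place of TMM, the median of all genes moved by -0.058 on the log2 scale, and 31.1% of the called genes were higher, against 51.6% with TMM. On that scale GARS, IARS, QARS, SARS and YARS were called lower after IFNγ, with log2 fold changes between -0.10 and -0.082. KARS, CARS, DARS and LARS2 remained called higher under every alternative. The interferon gamma activated site has the letters TTCNNNGAA, which also match their reverse complement. It was in a window of 4 of 29 synthetase genes, CARS, PARS2, TARS and WARS2. Counted by window, 6 of the 37 windows of the 29 genes held it, against 7.66% of all windows. The 2 windows of WARS2 overlap and hold the same site, which is thus counted in both. Of these 4 genes CARS rose with IFNγ.

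The combination against untreated cells gave the joint effect of both treatments. Of the cytosolic genes 14 fell and 2 rose, with a median log2 fold change of -0.28, and of the mitochondrial genes 5 fell and 5 rose, with a median of -0.086. Of all genes 31.2% were called lower and 30.9% higher, so the mitochondrial counts are near these shares. This comparison and that of radiation share the untreated libraries. NARS2 had 9.81, 9.45 and 11.9 CPM in combination libraries, against the untreated values above (log2 fold change -1.08 ± 0.0966 (SE), adjusted p = 1.48e-14). YARS had 128, 118 and 120.3 CPM in combination libraries (log2 fold change -0.96 ± 0.0381 (SE), adjusted p = 1.23e-29), GARS had 191, 188 and 186 CPM (log2 fold change -0.91 ± 0.0337 (SE), adjusted p = 4.35e-31), and AARS had 137, 133 and 135 CPM (log2 fold change -0.85 ± 0.0364 (SE), adjusted p = 4.75e-28). In all 4 genes the combination libraries lay below every untreated library. The same held for 3938 of all 12160 genes tested, and in 3884 the combination libraries lay above every untreated library.

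MARS had 187, 188 and 182 CPM in combination libraries, below every untreated library (log2 fold change -0.73 ± 0.0338 (SE), adjusted p = 1.65e-26). TARS had 294, 284 and 269.8 CPM in combination and 425, 417 and 421 CPM in untreated libraries (log2 fold change -0.57 ± 0.0333 (SE), adjusted p = 3.45e-22). MARS2 had 9.12, 8.88 and 9 CPM in combination and 14.0, 14.7 and 11.6 CPM in untreated libraries (log2 fold change -0.58 ± 0.111 (SE), adjusted p = 1e-05). The untreated libraries of MARS2 were the more spread, and its combination libraries lay close together below them. FARS2 had 14.9, 14.3 and 15.7 CPM in combination libraries, above every untreated library (log2 fold change 0.61 ± 0.109 (SE), adjusted p = 3.18e-06). QARS (0.36), HARS (0.14) and LARS2 (0.29) rose. DARS (-0.07), RARS (-0.03) and KARS (0.066), which were lower after radiation and higher after IFNγ, did not pass the test in the combination. DARS was called lower with library totals as the scale or without untreated replicate 1 (log2 fold change -0.092 to -0.091).

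Calls near the threshold in this comparison were lost when particular libraries were left out or settings changed. HARS2 (0.16) was not called in DESeq2 or without combination replicate 1 or untreated replicate 2 (log2 fold change 0.11 to 0.16). AARS2 (0.19, the mitochondrial alanine enzyme) was not called in DESeq2 or without combination replicate 3 or untreated replicate 2 or 3 (log2 fold change 0.17 to 0.20). CARS2 (0.20) was not called without combination replicate 1 or untreated replicate 3 (log2 fold change 0.13 to 0.14). Among the lower calls, YARS2 (-0.28) was lost in DESeq2 or without combination replicate 3 (log2 fold change -0.27 to -0.16). IARS2 (-0.086) was lost in DESeq2, with no filter, with the compared groups fitted alone or without combination replicate 2 or 3 or untreated replicate 2 (log2 fold change -0.086 to -0.067). LARS (-0.081) was lost in DESeq2, with the compared groups fitted alone or without combination replicate 2 or 3 or untreated replicate 2 or 3 (log2 fold change -0.08 to -0.04). PARS2 (-0.38) and SARS2 (-0.17) were not called. PARS2 was called with library totals as the scale or without combination replicate 1 or untreated replicate 1 (log2 fold change -0.62 to -0.40), and SARS2 with library totals as the scale or without untreated replicate 3 (log2 fold change -0.23 to -0.19).

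The combination against IFNγ cells gave the effect of radiation in the presence of the cytokine. These 6 libraries share none with the comparison of radiation and untreated cells. All 19 cytosolic genes were called, 17 lower and 2 higher, with a median log2 fold change of -0.32. Each of these 19 calls held under every alternative. Of the mitochondrial genes 9 fell and 4 rose, with a median of -0.17. Of all genes 30.4% were called lower and 30.3% higher, and both lists stand above the share of lower genes. Only 5 of the 9 lower mitochondrial calls held under every alternative. The 5 cytosolic genes with the largest decreases after radiation alone were again those with the largest decreases here.

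YARS had 128, 118 and 120.3 CPM in combination and 232, 236 and 227 CPM in IFNγ libraries (log2 fold change -0.92 ± 0.0382 (SE), adjusted p = 1.32e-28). GARS had 191, 188 and 186 CPM in combination and 339, 352 and 349.5 CPM in IFNγ libraries (log2 fold change -0.88 ± 0.0338 (SE), adjusted p = 3.47e-30). AARS had 137, 133 and 135 CPM in combination and 244, 239 and 245 CPM in IFNγ libraries (log2 fold change -0.84 ± 0.0364 (SE), adjusted p = 9.1e-28). In each gene the groups were separated by a gap wider than either group's range. Of all 12160 genes tested, 3919 had every combination library below every IFNγ library, whatever the gap. MARS had 187, 188 and 182 CPM in combination and 304, 309.6 and 308 CPM in IFNγ libraries (log2 fold change -0.73 ± 0.0339 (SE), adjusted p = 3.52e-26). CARS had 100.1, 99.6 and 99.8 CPM in combination and 166, 153 and 153 CPM in IFNγ libraries (log2 fold change -0.65 ± 0.0445 (SE), adjusted p = 5.04e-19). The combination libraries of CARS were nearly equal and lay below all IFNγ libraries. QARS (0.40) and HARS (0.15) were the 2 cytosolic genes that rose.

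In the mitochondrial list NARS2 had 9.81, 9.45 and 11.9 CPM in combination and 19.6, 21.9 and 21.5 CPM in IFNγ libraries (log2 fold change -1.02 ± 0.0977 (SE), adjusted p = 2.01e-13). MARS2 had 9.12, 8.88 and 9 CPM in combination and 12, 12.4 and 12 CPM in IFNγ libraries (log2 fold change -0.43 ± 0.114 (SE), adjusted p = 0.000922). Neither gene's groups overlapped. PARS2 had 5.39, 3.31 and 3.58 CPM in combination and 4.95, 6.26 and 5.92 CPM in IFNγ libraries, which overlap (log2 fold change -0.49 ± 0.176 (SE), adjusted p = 0.0145). Its call was lost in DESeq2 or without IFNγ replicate 2 or combination replicate 2 or 3 (log2 fold change -0.48 to -0.36). TARS2 (-0.43), EARS2 (-0.32) and IARS2 (-0.13) also fell, and FARS2 (0.34), AARS2 (0.28) and CARS2 (0.23) rose.

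Other mitochondrial calls of this comparison were less stable. HARS2 (0.19) was called higher but not without combination replicate 1 (log2 fold change 0.15). LARS2 (-0.15) was called lower but not in DESeq2, with library totals as the scale or without IFNγ replicate 1 or 3 or combination replicate 1 or 3 (log2 fold change -0.15 to -0.11). VARS2 (-0.18) was called lower but not in DESeq2, with library totals as the scale or without IFNγ replicate 1 or 2 or combination replicate 2 or 3 (log2 fold change -0.18 to -0.14). YARS2 (-0.24) was called lower but not in DESeq2 or without IFNγ replicate 1 or 3 or combination replicate 3 (log2 fold change -0.24 to -0.12). RARS2 (0.12) and WARS2 (-0.19) were not called. RARS2 was called with library totals as the scale or without IFNγ replicate 1 or 3 or combination replicate 2 (log2 fold change 0.16 to 0.17), and WARS2 without IFNγ replicate 2 or combination replicate 3 (log2 fold change -0.26 to -0.23).

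The combination against radiation cells gave the effect of IFNγ in irradiated cells, from 6 libraries that share none with the comparison of IFNγ and untreated cells. Of the cytosolic genes 3 rose and 7 fell, with a median log2 fold change of -0.048, and of the mitochondrial genes 1 rose and 1 fell, with a median of -0.0032. Of all genes 14.5% were called higher and 12.4% lower. The 7 of 19 lower cytosolic genes stand above the share of lower genes, and the 3 of 19 higher ones near that of higher genes. Of the 7 lower calls only 3 held under every alternative, and 4 were lost in some. With library totals as the scale the share of higher genes among those called was 38.0%, against 53.9% with TMM, and HARS, LARS and MARS were also called lower there. The genes that rose were KARS, DARS, CARS and LARS2, the 4 whose IFNγ calls had also held under every alternative in unirradiated cells. KARS had 375, 365 and 363 CPM in combination and 297, 304 and 313 CPM in radiation libraries (log2 fold change 0.27 ± 0.0314 (SE), adjusted p = 2.16e-10). DARS had 168, 165 and 158 CPM in combination and 141, 138 and 144 CPM in radiation libraries (log2 fold change 0.22 ± 0.0388 (SE), adjusted p = 9.78e-06). CARS had 100.1, 99.6 and 99.8 CPM in combination and 79.5, 88.0 and 91.9 CPM in radiation libraries (log2 fold change 0.21 ± 0.0484 (SE), adjusted p = 0.000638). In these 3 genes every combination library lay above every radiation library. The same held for 2488 of all 12160 genes tested, and in 2408 every combination library lay below.

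LARS2 had 45.8, 47.1 and 46.0 CPM in combination and 33.9, 35.0 and 30.9 CPM in radiation libraries, again without overlap (log2 fold change 0.48 ± 0.0635 (SE), adjusted p = 1.23e-08). MARS2 had 9.12, 8.88 and 9 CPM in combination and 11.3, 12.9 and 11.8 CPM in radiation libraries (log2 fold change -0.41 ± 0.115 (SE), adjusted p = 0.0045). The call of MARS2 was lost in DESeq2 (log2 fold change -0.41). TARS had 294, 284 and 269.8 CPM in combination and 304, 320.4 and 322 CPM in radiation libraries (log2 fold change -0.16 ± 0.034 (SE), adjusted p = 0.00021). Its combination libraries lay below every radiation library. The YARS libraries, at 128, 118 and 120.3 CPM in combination and 136, 136 and 133 CPM in radiation, also did not overlap (log2 fold change -0.14 ± 0.0406 (SE), adjusted p = 0.00539). YARS lost its call without combination replicate 2 (log2 fold change -0.12). IARS (-0.14) and AARS (-0.14) fell under every alternative. GARS (-0.11) lost its call without combination replicate 2 or 3 or radiation replicate 1 (log2 fold change -0.11 to -0.099). SARS (-0.12) lost its call in DESeq2, with no filter or without combination replicate 1, 2 or 3 or radiation replicate 1 or 3 (log2 fold change -0.12 to -0.094), and NARS (-0.094) in DESeq2, with no filter or without combination replicate 2 or 3 or radiation replicate 2 or 3 (log2 fold change -0.095 to -0.066). FARS2 (0.24) and PARS2 (-0.39) were not called. FARS2 was called without radiation replicate 3 (log2 fold change 0.37), and PARS2 without combination replicate 1 (log2 fold change -0.63).

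**Figure D5:**
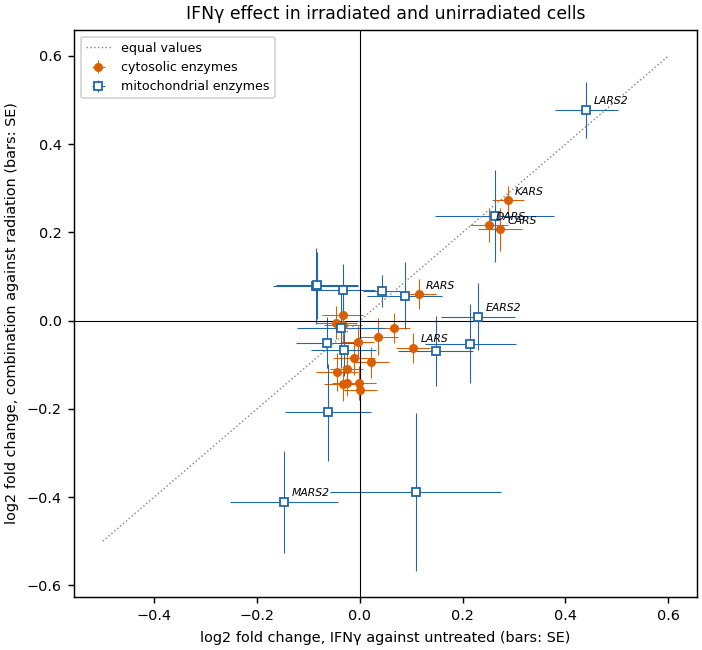
Log2 fold change ± SE of each synthetase gene for IFNγ against untreated (horizontal) and combination against radiation (vertical), with a dotted line of equal values. LARS2, KARS, CARS and DARS are far to the upper right, as is FARS2 (0.26 and 0.24, called in neither comparison), and MARS2 at -0.41 and PARS2 at -0.39 (not called) are low on the vertical axis.

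The interaction sets the 2 effects of IFNγ against each other, as the log2 fold change of combination over radiation minus that of IFNγ over untreated. It was called for 1 cytosolic gene, LARS, lower, and for 0 mitochondrial genes, while 1.38% of all genes were called higher and 0.995% lower. LARS had 330.0, 323 and 317 CPM in combination, 332, 338 and 342 CPM in radiation, 362, 367 and 372 CPM in IFNγ and 321, 359.5 and 345 CPM in untreated libraries (interaction -0.16 ± 0.0477, SE, adjusted p = 0.0476). The untreated values were the most spread of these. The call was lost in DESeq2, with library totals as the scale or without IFNγ replicate 1, 2 or 3, combination replicate 2 or 3, radiation replicate 1, 2 or 3 or untreated replicate 1 or 3 (interaction -0.18 to -0.12). TARS was next, with an interaction of -0.16 ± 0.0469 (SE, adjusted p = 0.0539), and was not called, but was with no filter or without combination replicate 1, radiation replicate 1 or untreated replicate 1 (interaction -0.19 to -0.16). Of the 19 cytosolic interactions 16 were negative, beside 6123 of all 12160 genes tested, with a median of -0.07 against -0.0015. At an unadjusted p under 0.05 in edgeR, 6 cytosolic interactions were lower. No mitochondrial interaction was called by DESeq2 either, but it gave no adjusted p for FARS2, MARS2, NARS2, PARS2 and WARS2. For these genes DESeq2 could make no call. In edgeR 3 mitochondrial interactions were lower at an unadjusted p under 0.05. The share of all genes at that unadjusted p is not given here. For KARS the interaction was -0.015 ± 0.0440 (SE), for DARS -0.034 ± 0.0536, for CARS -0.066 ± 0.0648 and for LARS2 0.038 ± 0.0881, none of them called. With library totals, 69.4% of all called interactions were higher, against 58.1% with TMM.

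The genes around the synthetases were described from lists of the same pathways. ATF4 itself had 169.7, 169 and 169 CPM in combination, 175, 178 and 182 CPM in radiation, 414, 425 and 399 CPM in IFNγ and 420.1, 422 and 414 CPM in untreated libraries. It fell in the 6 irradiated libraries (log2 fold change -1.23 ± 0.0335 (SE), adjusted p = 3.84e-37 for radiation against untreated) and stood at -0.02 for IFNγ, not called. Of 33 tested genes of the ATF4 pathway other than synthetases, 27 fell and 3 rose after radiation, and the median log2 fold change was -0.88. The largest changes were those of CHAC1 (-3.58), SLC1A4 (-2.13), ASNS (-2.13) and SLC7A5 (-1.79), a glutathione-degrading enzyme, a neutral amino acid transporter, asparagine synthetase and a transporter of large neutral amino acids. The 27 of 33 stand above the 28.2% of all genes called lower. After IFNγ 7 of the 33 rose and 6 fell, near the 15.0% and 14.1% of all genes. In the combination against untreated cells 28 fell and 4 rose, where 31.2% of all genes were lower and 30.9% higher. For the 19 cytosolic synthetases the median after radiation was -0.29.

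Other parts of the translation machinery were counted in the same way, beside the 28.2% of all genes called lower and 27.9% called higher after radiation. Of 5 cytosolic elongation factor genes, which bring loaded transfer RNAs to the ribosome and move it along, 4 rose after radiation and 0 fell in edgeR, 0 at an unadjusted p under 0.05 and 0 in DESeq2. Their changes were small: EEF1A1 stood at 0.18 and EEF2 at 0.14 on the log2 scale. Of 78 mitochondrial ribosomal protein genes 41 fell and 5 rose, with a median of -0.16, against -0.12 for the mitochondrial synthetases. The largest of these were MRPL54 (-0.78), MRPS2 (-0.67) and MRPL49 (0.57). Of 10 mitochondrial translation factor genes 3 fell, TSFM (-0.40) among them, and 2 rose, near the shares of all genes. Mitochondria charge glutamine transfer RNA through a glutamate step and the amidotransferase of QRSL1, GATB and GATC, and formylate their initiator through MTFMT. None of these 4 genes was called in any of the 6 comparisons by edgeR or DESeq2. At an unadjusted p under 0.05 in edgeR there was 1 in the combination against untreated cells and 1 in each direction in the combination against radiation cells. Their log2 fold changes after radiation lay between 0.0077 and 0.065. TARSL2, a synthetase gene outside the 35, stood at 0.15 after radiation, not called.

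Several synthetase genes share exon bases with a neighbour in GENCODE release 29, and their counts carry that uncertainty. SARS2 shares 46.2% of its exon bases with AC011455.2, annotated as a separate gene on the same strand, and 10.8% with MRPS12 on the opposite strand. VARS2 shares 22.0% with GTF2H4 on the same strand. MARS shares 5.05% with DDIT3, an ATF4 target, and 7.38% with ARHGAP9, both on the opposite strand. DDIT3 had a radiation log2 fold change of -0.46. The other overlaps of synthetase genes with named protein-coding genes covered 2.81% to 11.7% of their exon bases.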

How the data were processed

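The authors deposited raw counts per gene for 12 libraries of HT1080 cells, as whole numbers with no normalization. Stranded paired-end libraries came from column-purified RNA depleted of ribosomal RNA, per the labels' protocols, although the design text speaks of an mRNA protocol. Cuffdiff 2.2.1, Cufflinks, TopHat2 2.0.13 and FastQC 0.11.3 stand in the submitters' processing notes, with hg19 as the build. For the counting step, the tool, strand setting and annotation were not given in any source used here. Columns were matched to libraries by title.

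Counts were fitted with edgeR 4.0.16 in R 4.3.3 (filterByExpr, TMM, robust quasi-likelihood, all 12 libraries in a single fit without a block), which left 12160 genes, with Benjamini-Hochberg adjustment over all of them and a threshold of 0.05. The common coefficient of variation was 2.71%. Standard errors are approximations, obtained by dividing a log2 fold change (without its sign) by the root of its F statistic. DESeq2 1.42.0, library totals, no filter, the compared groups fitted alone, a replicate block and each library left out were alternatives. The fit was tested on simulated data. No library was a copy of another (chi-square per degree of freedom of replicate pairs 1.14 to 2.75). Transcript lengths and exon overlaps came from GENCODE release 29 (GRCh38), and promoter windows from RefSeq (GRCh38.p14); no coordinate was converted. No protein sequence was used here.

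The genes and lists were chosen with earlier results of these data known. In each comparison, library values are printed for the 5 called cytosolic and 3 called mitochondrial genes with the largest absolute log2 fold change, and other genes by count, range and log2 fold change; QARS, HARS, LARS and ATF4 were added after their values were seen, and up to 4 genes are named per other list.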

Additional observations from a re-analysis of the deposited data

Results flagged for a closer look

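The response to IFNγ of LARS, the gene of the cytosolic leucine enzyme, passed the threshold for a difference between irradiated and unirradiated cells in the fit of all libraries, but the call was lost in 12 of 16 alternatives. Its log2 effect of IFNγ was -0.061 in irradiated cells (combination against radiation) and 0.10 in unirradiated cells (IFNγ against untreated), a difference of -0.16 ± 0.0477 (SE; adjusted p = 0.0476 in edgeR's quasi-likelihood test with Benjamini-Hochberg adjustment). Over the alternatives the difference ran from -0.20 without untreated replicate 2 to -0.12 without untreated replicate 1, with adjusted p between 0.00886 and 0.158.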

How the results depend on the processing

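Over 35 genes, 6 comparisons and all alternatives, 2480 values were recomputed. Of these 2352 kept their side of the threshold, 98 lost a call and 30 gained a call. The sign changed in 70 values of 33 results, of which 0 were called with either sign, and was kept by every called result. Of 104 called results 78 kept their call under every alternative, among them all 19 cytosolic calls of the combination against IFNγ. DESeq2 called 4 mitochondrial genes after radiation (8 in edgeR), 1 after IFNγ (2), 6 in the combination against untreated (10) and 1 in the combination against radiation (2), and 0 cytosolic interactions (1). It called 9 mitochondrial genes in the combination against IFNγ (13). Of the cytosolic genes DESeq2 called 17 after radiation (18), 15 in the combination against untreated (16) and 8 in the combination against radiation (10). With library totals 8 cytosolic genes (5) and 1 mitochondrial gene (2) were called after IFNγ, and 0 cytosolic interactions (1). With no filter 2 cytosolic interactions were called. Leaving out each library in turn gave 1 to 3 mitochondrial calls for IFNγ (1 without IFNγ replicate 1), 6 to 9 cytosolic calls for the combination against radiation (6 without combination replicate 2) and 0 to 2 cytosolic interactions. The labels do not say that a replicate number marks a shared culture, and deviations from group means correlated at -0.10 to 0.11 between same-numbered libraries of different groups. With the replicate block 18 cytosolic and 8 mitochondrial genes were called after radiation, as without it, and it changed no count of calls. By exon union in place of the principal transcript, chosen after seeing the data, the median level per kilobase was 47.7 CPM for cytosolic and 5.58 CPM for mitochondrial genes. Depth limits the mitochondrial genes most: PARS2 had as few as 35 counts per library.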
